A study of Mus musculus with 6 samples.

Results

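The genes described are the enzymes that place methyl groups on histone lysines (writers), the enzymes that remove them (erasers), subunits that writer complexes need, and related proteins with a JmjC or SET domain. They were taken by symbol from a list of 59 names, and 58 genes of the count table matched, because Setd8 is an older name of Kmt5a. The table held 22105 genes with a name, and 12288 of them, including all 58 listed genes, had enough counts to be tested. RNA-seq libraries came from 4T1, a single line of mouse mammary carcinoma cells grown in DMEM with fetal bovine serum and antibiotics. The 3 control libraries came from cells given the solvent DMSO, and the other 3 from cells given 10 µM P3FI-90, an inhibitor of the H3K9 demethylase KDM3B, in both cases for 24 h. The labels do not say whether libraries of a group came from separate cultures, so p-values measure the spread between these libraries, which may be technical. The comparison asked which writers and erasers of each mark changed in mRNA level after the inhibitor.

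Methylated lysines on histone tails are read by other proteins, and which residue is methylated matters. H3K4 methylation marks active promoters and enhancers, H3K36 methylation lies over transcribed gene bodies, H3K9 methylation marks heterochromatin and silenced repeats, and H3K27 methylation is the product of Polycomb repressive complex PRC2. Writers take the methyl group from S-adenosylmethionine. Most erasers are JmjC dioxygenases, which use iron, oxygen and alpha-ketoglutarate, while the LSD1 group uses flavin. An inhibitor acts on the protein, so mRNA levels do not report how active an enzyme was, and neither histone marks nor proteins were measured in these libraries.

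Named genes took between 31327094 and 37395732 counts in a library. The response was broad: edgeR's quasi-likelihood test with Benjamini-Hochberg adjustment called 79.3% of all genes tested at an adjusted p under 0.05, 39.9% higher and 39.4% lower after P3FI-90. All 6 mammary carcinoma markers were detected and all 6 fell, with summed normalized counts between 142200 and 149500 in the DMSO libraries and between 58100 and 61020 after P3FI-90. Leukocyte markers summed to between 469.7 and 561.6 in DMSO and between 197.9 and 258.3 after P3FI-90, nearly all of it Cd14 (Adgre1 was at 0). Fibroblast markers summed to between 1411 and 1450 in DMSO and between 1001 and 1096 after P3FI-90, mostly Pdgfra (Lum was at 0). Endothelial markers summed to at most 33.69 in any library. Only Pecam1 of these 4 had enough counts to be tested, and it was called higher (log2 fold change 2.10, adjusted p = 0.0355). That call rests on raw counts of 0, 0 and 13 in DMSO and 20, 17 and 27 after P3FI-90. The part of these shifts in the results was not tested, and because RNA was taken from whole cultures, fewer cells with an mRNA and less of it per cell cannot be told apart.

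Of the 58 listed genes, 39 rose (67.2%), 16 fell (27.6%) and 3 (Eed, Jmjd4 and Smyd2) did not pass the test. In all 94.8% were called, against 79.3% of all genes tested (39.9% higher and 39.4% lower). The listed genes also had more counts (median of mean normalized counts 2808, against 1307 for all genes tested). Their standard errors were smaller (median 0.049 against 0.066). Whether the higher share called comes from this was not tested. The median log2 fold change was 0.26 over the listed genes and 0.013 over all genes tested, whereas the median size of the change regardless of direction was similar, 0.54 and 0.55. Rises also reached further than falls. A rise of more than 1 on the log2 scale was called for 10 listed genes (12.7% of all genes tested), and no listed gene fell by more than 1 (10.6% of all genes tested, and 23.3% in either direction). Erasers had the higher median, at 0.57 with 15 of 19 higher and 4 lower, against 0.26 for the writers and their subunits, with 21 of 30 higher and 7 lower, a difference that was not tested. Libraries of the 2 groups did not overlap for 39 genes on the high side and 17 on the low side, and overlapped for Jmjd4 and Smyd2 (of all genes tested, 81.2% did not overlap, 41.0% on the high side and 40.2% on the low side). When libraries were scaled by total counts alone, the median of all genes moved up by 0.21. Then 43 listed genes were called higher and 10 lower (50.3% and 29.6% of all genes). Long transcripts rose more often in the whole data set. With a trend on transcript length and GC content removed, 26 listed genes were called higher and 18 lower, as set out with the values by length further on. Of all genes, 38.8% were called higher and 39.6% lower under that setting.

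**Figure D1:**
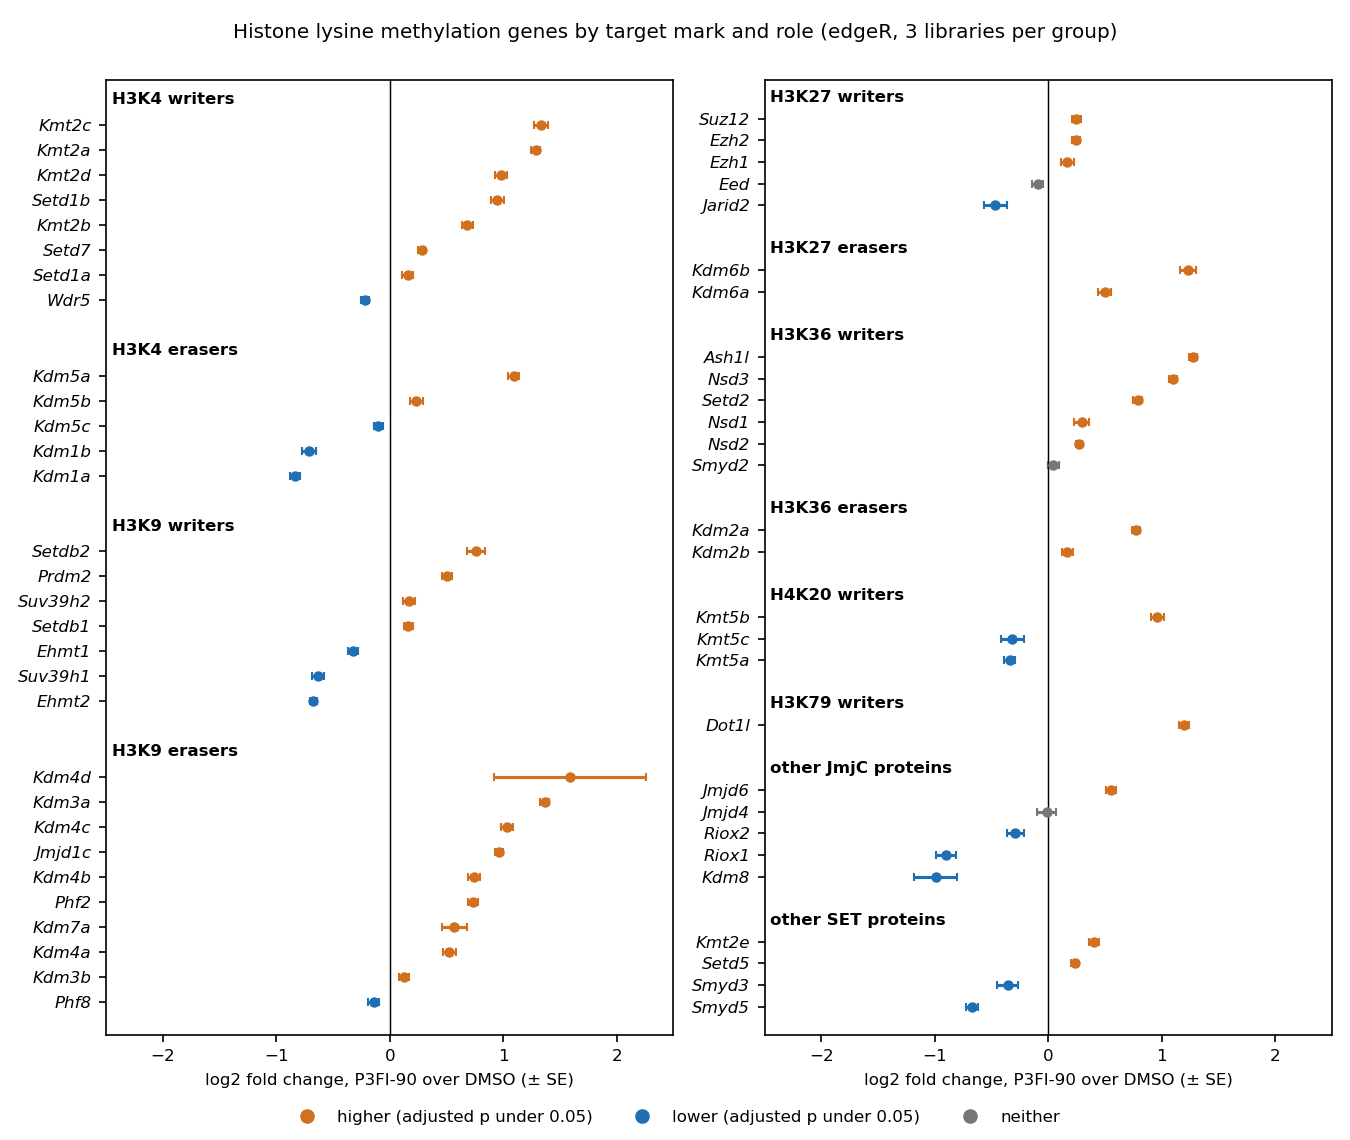
Log2 fold change (x axis, P3FI-90 over DMSO, points with standard error bars derived from edgeR's F statistic, 3 libraries per group) of the 58 listed genes, grouped by target mark and role (y axis). Orange points rose, blue points fell and grey points did not pass an adjusted p of 0.05. Of 10 H3K9 erasers 9 lie to the right of 0, while the H3K4 erasers run from -0.83 (Kdm1a) to 1.09 (Kdm5a).

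Of the 10 H3K9 erasers, which include the gene of KDM3B, the named target of P3FI-90, 9 rose and 1 fell, with a median log2 fold change of 0.74. This count and those of the other marks stand beside 39.9% of all genes tested called higher and 39.4% called lower. Each gene was counted under a single mark, although some, such as Kdm4a, Kdm4b, Kdm4c and Phf8, act on others as well. The Kdm3 genes encode JmjC demethylases of the lower H3K9 methylation states. Kdm3b itself had normalized counts of 2791, 2924 and 2839 in the DMSO libraries and 3049.5, 3159.6 and 3119 in the P3FI-90 libraries (counts scaled to a common effective library size). The groups did not overlap, but the gap was narrow, and the log2 fold change was 0.13 ± 0.043 (adjusted p = 0.0169). Here and in what follows, ± after a log2 fold change is a standard error derived from the test. It is the size of the change divided by the square root of the quasi-likelihood F statistic. After a share or a mean, ± is the SD of 3 libraries. The call of Kdm3b was lost with upper quartile scaling (0.087, adjusted p = 0.0801) and without DMSO library 1, P3FI-90 library 2 or P3FI-90 library 3 (adjusted p = 0.0627, 0.0588 and 0.0518). With the length and GC trend removed the direction turned, to -0.065 (adjusted p = 0.165), and with the length of all exons joined in that trend Kdm3b was called lower (-0.14, adjusted p = 0.00761). The annotation also places an antisense gene, Gm26538, over 24.6% of the exon bases of Kdm3b, and whether counting used strand is not given in the sources used here.

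Its paralog Kdm3a, which is also known as a hypoxia-induced coactivator of nuclear receptors, had normalized counts of 2671, 2659 and 2778 in the DMSO libraries and 6948, 6697 and 7239 in the P3FI-90 libraries. Every P3FI-90 library lay well above every DMSO library, and the log2 fold change was 1.36 ± 0.040 (adjusted p = 9.44e-13), the largest rise of any listed gene apart from the scarcely detected Kdm4d. The third paralog, Jmjd1c, had normalized counts of 3174, 3295 and 3166 in the DMSO libraries and 6111, 6328 and 6323 in the P3FI-90 libraries. These groups too were well apart, with a log2 fold change of 0.96 ± 0.036 (adjusted p = 1.04e-11). Per kilobase of transcript, the 3 genes summed to between 1357.5 and 1390.3 normalized counts in the DMSO libraries and between 2612 and 2716 after P3FI-90. The share of Kdm3a in that sum rose from 40.4% ± 0.94 (SD, n = 3) to 54.1% ± 1.12, and the share of Kdm3b fell from 32.5% ± 0.47 to 18.4% ± 0.50. Jmjd1c kept close to the same share, 27.1% ± 0.51 and 27.4% ± 0.63, and only for this paralog did the shares of the 2 groups overlap. Thus Kdm3b made up less of the family mRNA after P3FI-90 although its own counts were slightly higher.

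Of the Kdm4 demethylases, Kdm4c, Kdm4b and Kdm4a, which act on the trimethylated forms of H3K9 and H3K36, rose as well. Their log2 fold changes were 1.03, 0.75 and 0.52. Kdm4d, whose normal expression is mainly in testis, had the largest fitted log2 fold change of all, 1.59 ± 0.67 (adjusted p = 0.0421), on very few counts. Its libraries held 8, 0 and 17 raw counts in DMSO and 28, 40 and 18 after P3FI-90. In every library more genes held 2 counts than 1, so 1 count may not be 1 fragment, and the gene was too low to be tested with the counts halved. Scaled, the highest DMSO library stood at 17.4 and the lowest P3FI-90 library at 17.6, so the groups nearly met. The call was lost in 7 of the 17 alternatives in which the gene could be tested, including those without DMSO library 1 or 2 or without P3FI-90 library 1 or 2 (adjusted p = 0.109, 0.111, 0.0842 and 0.146), and leaving out single libraries gave values from 1.06 (without DMSO library 2) to 2.59 (without DMSO library 3). Part of its sequence (10.2% of windows of 50 bases) is shared with Kdm4dl. Among the PHD-finger JmjC demethylases, Phf2 rose by 0.73 and Kdm7a by 0.57, whereas Phf8, which also removes methyl groups from H4K20, fell by 0.14 (adjusted p = 0.0132). With the length and GC trend removed Kdm7a was at 0.063 and was not called (adjusted p = 0.581). The direction of Phf8 turned under scaling by total counts (0.072), where its change did not pass the test (adjusted p = 0.173). Per kilobase, Phf2 and Phf8 went from 49.9% and 44.2% of their family to 62.9% and 30.4%.

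Among the H3K9 writers 4 rose and 3 fell, with a median of 0.16. Ehmt2 (G9a), which with Ehmt1 (GLP) places mono- and dimethylation in euchromatin, had normalized counts of 9522, 9346 and 9592 in the DMSO libraries and 5968, 5985 and 5909 in the P3FI-90 libraries. Each P3FI-90 library was far below each DMSO library, with little spread inside either group, and the log2 fold change was -0.67 ± 0.032 (adjusted p = 1.34e-10). Ehmt1 fell too, by 0.32, so that the summed level per kilobase of the pair went from between 3008 and 3065 to between 2003 and 2052. Suv39h1, a writer of pericentromeric H3K9 trimethylation, had normalized counts of 3667, 3312 and 3483 in the DMSO libraries and 2187, 2311 and 2259 in the P3FI-90 libraries. The groups were again apart, with a log2 fold change of -0.63 ± 0.050 (adjusted p = 3.20e-08). Its paralog Suv39h2 rose by 0.17, and the share of Suv39h1 in the pair, per kilobase, fell from 73.0% ± 1.5 to 60.8% ± 0.68. Of the remaining writers, Setdb1, which silences endogenous retroviruses, rose by 0.16, Setdb2 by 0.76 and Prdm2 by 0.51. The rises of Suv39h2 and Setdb1 did not survive removal of the length and GC trend (-0.0020 and 0.031, adjusted p = 0.971 and 0.421). The antisense gene Gm14820 covers 14.6% of the exon bases of Suv39h1.

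Among the H3K4 writers most genes rose. Of 8 writers and subunits 7 rose and 1 fell, with a median log2 fold change of 0.81. Kmt2c, one of the MLL-type enzymes that place monomethylation at enhancers, had normalized counts of 809.6, 915 and 865 in the DMSO libraries and 2117, 2081 and 2314 in the P3FI-90 libraries. No P3FI-90 library came near the DMSO range, and the log2 fold change was 1.33 ± 0.063 (adjusted p = 1.28e-10). Kmt2a (MLL1), which maintains Hox gene expression, had normalized counts of 3804, 4003 and 3925 in the DMSO libraries and 9345, 9299 and 9952 in the P3FI-90 libraries. The log2 fold change was 1.29 ± 0.039 (adjusted p = 1.30e-12), with the groups apart. Kmt2d rose by 0.98, Setd1b by 0.95 and Kmt2b by 0.68, whereas Setd1a, a writer of promoter trimethylation, rose by only 0.16 and its call did not hold with the length and GC trend removed (0.017, adjusted p = 0.726). Much of the sequence of Setd1a (51.2% of windows of 50 bases) is shared with the overlapping gene Gm49388, which had at most 1 count in any library. Setd7, a monomethyltransferase that also acts on non-histone proteins, rose by 0.28, and Wdr5, the scaffold that the Kmt2 and Setd1 enzymes share, fell by 0.22. The fall of Wdr5 was lost with total counts alone (-0.0046, adjusted p = 0.910). Within the Kmt2 and Setd1 enzymes the share of Setd1a, per kilobase, fell from 40.8% ± 1.22 to 27.4% ± 0.18 and that of Kmt2a rose from 20.1% ± 0.76 to 29.4% ± 0.76.

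The flavin-dependent H3K4 erasers fell. Kdm1a (LSD1), which acts with CoREST in repressor complexes, had normalized counts of 7158, 7562 and 7332 in the DMSO libraries and 3966, 3950.0 and 4448 in the P3FI-90 libraries. All 3 P3FI-90 libraries were far below the DMSO range, with a log2 fold change of -0.83 ± 0.047 (adjusted p = 7.10e-10). In DMSO Kdm1a had the highest level per kilobase of the 58 genes, 2428 normalized counts, and after P3FI-90 it ranked ninth with 1361. Its relative Kdm1b (LSD2) had normalized counts of 1383, 1484 and 1462 in the DMSO libraries and 819, 915 and 910.1 in the P3FI-90 libraries. These groups did not overlap either, and the log2 fold change was -0.71 ± 0.065 (adjusted p = 1.55e-07). The JmjC erasers of the same mark did otherwise, since Kdm5a rose by 1.09 and Kdm5b by 0.23 while the X-linked Kdm5c fell by 0.099 (adjusted p = 0.0247). With the length and GC trend removed Kdm5b was called lower (-0.16, adjusted p = 0.0148), and with total counts alone Kdm5c was called higher (0.12, adjusted p = 0.0122). The call of Kdm5c was also lost with at least 10 counts required in every library (adjusted p = 0.0636) and without DMSO library 3, P3FI-90 library 1 or P3FI-90 library 2 (adjusted p = 0.113, 0.0849 and 0.0712). Kdm5a went from 22.7% ± 1.06 to 39.0% ± 0.63 of the family per kilobase, and Kdm5c from 63.1% ± 1.70 to 47.5% ± 0.76.

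**Figure D2:**
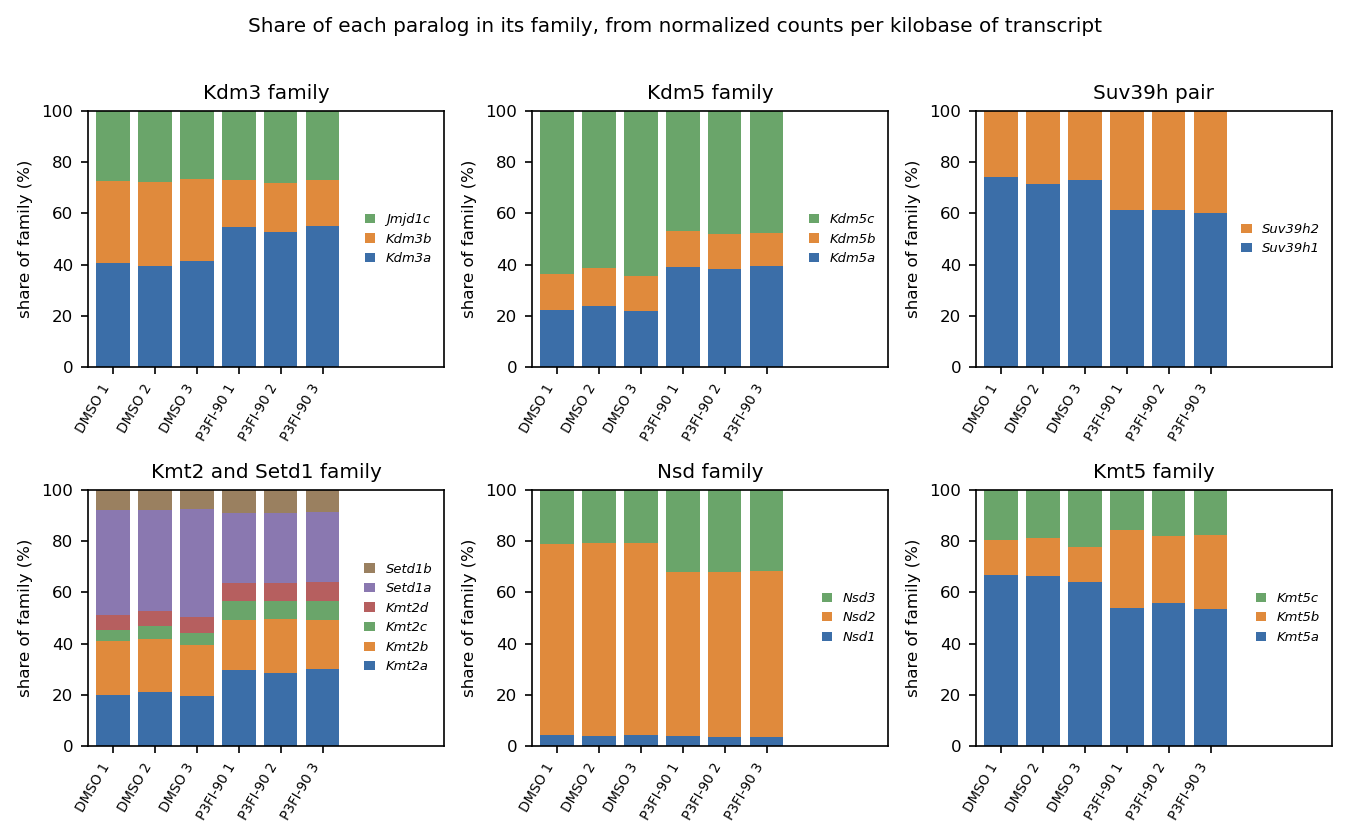
Share of each paralog (y axis, percent of the summed normalized counts per kilobase of its family) in each of the 6 libraries (x axis) for 6 families. Kdm3b holds 32.2% to 33.1% of the Kdm3 family in DMSO and 18% to 19% after P3FI-90, and Kmt5b widens from 13.7% to 14.5% of its family to 26.3% to 30.4%.

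Of PRC2, the H3K27 writer, the listed subunits Ezh1, Ezh2, Eed and Suz12 had log2 fold changes between -0.096 and 0.25, whereas the histone chaperones Rbbp7 and Rbbp4, which also belong to its core and which many other complexes share, fell (-0.81 and -0.60). Ezh2, its main catalytic subunit in dividing cells, had normalized counts of 3871, 4026 and 3838 in the DMSO libraries and 4576, 4662 and 4629 in the P3FI-90 libraries. The P3FI-90 libraries were higher without overlap, by 0.24 ± 0.037 (adjusted p = 3.13e-05). Ezh1, the alternative catalytic subunit, had normalized counts of 1203, 1149 and 1204 in the DMSO libraries and 1387, 1282 and 1328 in the P3FI-90 libraries. The groups were apart by a small margin, and the log2 fold change was 0.17 ± 0.058 (adjusted p = 0.0160). This call was lost with upper quartile scaling (0.13, adjusted p = 0.0538), with the trend removed (0.10, adjusted p = 0.107) and without DMSO library 2 or P3FI-90 library 1 (adjusted p = 0.0661 and 0.0757). Per kilobase Ezh2 made up 83.3% ± 0.72 of the pair in DMSO and 84.0% ± 0.66 after P3FI-90, shares that overlapped between the groups.

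The scaffold subunit Suz12 had normalized counts of 9220.0, 10317 and 9992 in the DMSO libraries and 11585, 11333 and 12124 in the P3FI-90 libraries. It was higher in each P3FI-90 library than in any DMSO library, with a log2 fold change of 0.25 ± 0.043 (adjusted p = 0.000106). With the length and GC trend removed Suz12 was at 0.059 and was not called (adjusted p = 0.0971). Eed, which binds trimethylated H3K27 and stimulates the enzyme, had normalized counts of 2400.4, 2421 and 2344 in the DMSO libraries and 2312, 2169.7 and 2224 in the P3FI-90 libraries. Although the P3FI-90 libraries lay just below the DMSO libraries, the log2 fold change of -0.096 ± 0.048 (adjusted p = 0.0841) did not pass. Eed was called lower with upper quartile scaling (-0.13, adjusted p = 0.0213) and higher with total counts alone (0.12, adjusted p = 0.0359). Jarid2, an accessory subunit with an inactive JmjC domain that helps to recruit PRC2, had normalized counts of 614, 525 and 502 in the DMSO libraries and 407, 398 and 382 in the P3FI-90 libraries. It fell in this comparison, with DMSO library 1 the highest of the 6 and a log2 fold change of -0.47 ± 0.10 (adjusted p = 0.000727). Thus 3 of the 5 listed PRC2 genes rose and 1 fell in the main fit, with a median of 0.17. With the length and GC trend removed 1 was called higher and 1 lower.

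Both H3K27 erasers rose. Kdm6b (JMJD3), which is induced by inflammatory signals in macrophages, had normalized counts of 1132, 924 and 1128 in the DMSO libraries and 2445, 2631 and 2417 in the P3FI-90 libraries. DMSO library 2 was lowest, all P3FI-90 libraries were well above the DMSO range, and the log2 fold change was 1.23 ± 0.072 (adjusted p = 1.24e-09). Kdm6a (UTX), a subunit of the Kmt2c and Kmt2d complexes, rose by 0.50. Per kilobase, Kdm6b went from 44.1% ± 3.86 to 56.9% ± 1.27 of the pair, and so passed Kdm6a, without overlap between the groups.

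None of the 8 genes assigned here to H3K36 was called lower, as 7 rose and Smyd2 did not pass. Kdm4a, Kdm4b and Kdm4c, which also act on this mark, were counted under H3K9. Kdm8, for which H3K36 demethylation has been described, was not assigned to a mark and fell (-0.99). It is one of 9 genes without an assigned mark, of which 5 were called lower and 3 higher. These 9, Riox1 and Smyd5 among them, enter none of the counts by mark. Ash1l, a trithorax-group enzyme that places dimethylation, had normalized counts of 3606, 3729 and 3926 in the DMSO libraries and 9071, 9012 and 9137 in the P3FI-90 libraries. The log2 fold change was 1.27 ± 0.038 (adjusted p = 1.19e-12) and the spread within each group was small against it. Nsd3, a dimethylating enzyme amplified in some cancers, had normalized counts of 4069, 3925 and 3959.9 in the DMSO libraries and 8628, 8458 and 8503 in the P3FI-90 libraries. Its groups were far apart, with a log2 fold change of 1.10 ± 0.034 (adjusted p = 1.62e-12). Setd2, which places trimethylation behind elongating RNA polymerase, rose by 0.79. Nsd1 and Nsd2 rose by 0.29 and 0.27, yet both were called lower once the length and GC trend was removed (-0.26 and -0.14, adjusted p = 0.00246 and 0.000538). In the Nsd family Nsd2 held 75.1% ± 0.32 of the level per kilobase in DMSO and 64.6% ± 0.57 after P3FI-90, while Nsd3 went from 20.8% ± 0.32 to 31.8% ± 0.33. Smyd2, which also methylates p53, had a log2 fold change of 0.043 (adjusted p = 0.431), but was called higher with total counts alone (0.26) and with the trend removed (0.27), and Gm37422 on the other strand covers 30.0% of its exon bases. The erasers Kdm2a and Kdm2b, which bind unmethylated CpG islands, rose by 0.77 and 0.17, the latter without a call once the trend was removed (0.046, adjusted p = 0.365).

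The H4K20 and H3K79 writers are few. Kmt5a, the monomethylating enzyme that is tied to the cell cycle, fell by 0.34, and of the enzymes that add further methyl groups Kmt5b rose by 0.96 and Kmt5c fell by 0.32 (adjusted p = 0.00979). The share of Kmt5b in the family per kilobase went from 14% ± 0.46 to 28.6% ± 2.07. Without DMSO library 3, the highest for Kmt5c, the fall of Kmt5c was -0.19 and was not called (adjusted p = 0.0608). It was also not called with total counts alone (-0.10, adjusted p = 0.350) or with the length and GC trend removed (-0.15, adjusted p = 0.160). Dot1l, the only known H3K79 methyltransferase and one without a SET domain, had normalized counts of 2762, 2565 and 2678 in the DMSO libraries and 6159, 6330.0 and 5818 in the P3FI-90 libraries. The groups were far apart, with a log2 fold change of 1.19 ± 0.043 (adjusted p = 7.90e-12).

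The largest falls were in JmjC proteins that are not assigned to a mark here. Kdm8 (JMJD5), for which both H3K36 demethylation and arginine hydroxylation have been described, had normalized counts of 189, 175 and 142 in the DMSO libraries and 81.4, 86.3 and 86.2 in the P3FI-90 libraries. Its counts, not divided by length, were the lowest of the listed genes after Kdm4d, the groups did not overlap, and the log2 fold change was -0.99 ± 0.19 (adjusted p = 0.000270). Riox1 (NO66), an oxygenase that hydroxylates a ribosomal protein, had normalized counts of 1046, 849 and 956 in the DMSO libraries and 542, 504 and 483 in the P3FI-90 libraries. The highest P3FI-90 library was still well below the lowest DMSO library, with a log2 fold change of -0.90 ± 0.089 (adjusted p = 3.74e-07). Gm26571, on the opposite strand, covers 31.9% of the exon bases of Riox1. The related ribosomal oxygenase Riox2, whose exon bases overlap those of Crybg3 on the other strand by 22.4%, fell by 0.29, Jmjd6, a lysyl hydroxylase of splicing proteins, rose by 0.55, and Jmjd4, which hydroxylates a translation termination factor, was at -0.014 (adjusted p = 0.884). Of the SET proteins, Smyd5 had normalized counts of 1906, 1916 and 1941 in the DMSO libraries and 1182, 1269 and 1155 in the P3FI-90 libraries. This was a fall without overlap, at a log2 fold change of -0.68 ± 0.053 (adjusted p = 3.23e-08). Smyd3, a methyltransferase with cytoplasmic substrates, fell by 0.36, and Setd5 and Kmt2e, which have little or no known methyltransferase activity, rose by 0.23 and 0.40. The falls of Riox2 and Smyd3 were lost with total counts alone (-0.077 and -0.15, adjusted p = 0.362 and 0.172).

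**Figure D3:**
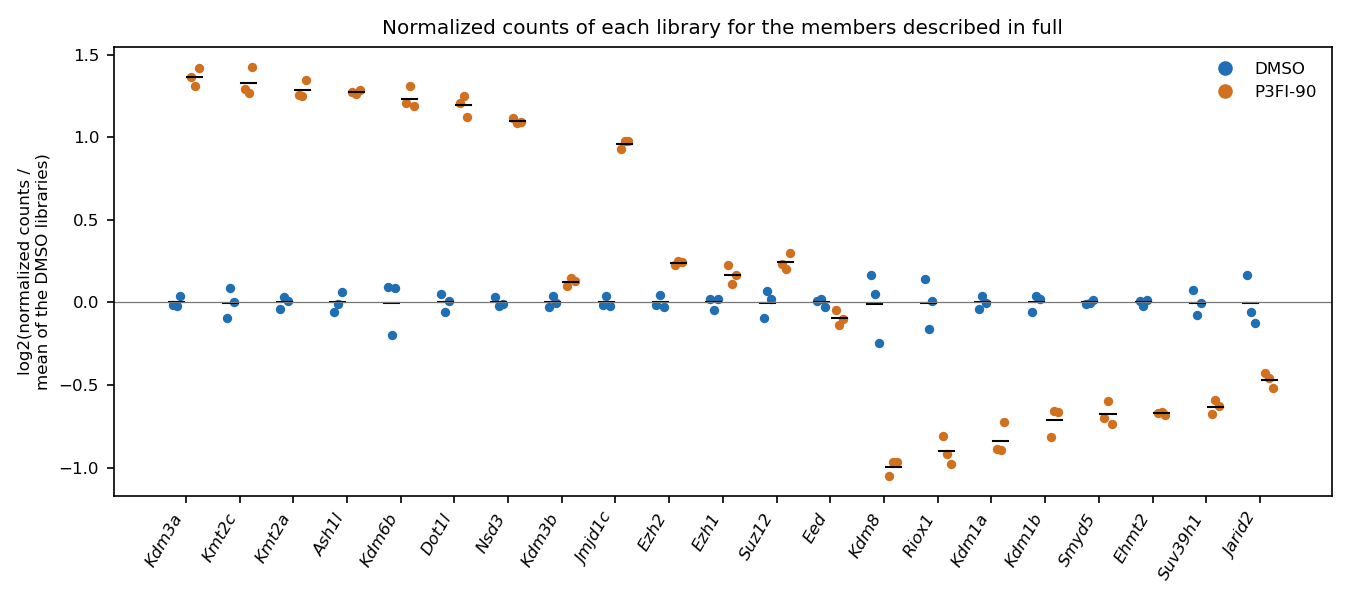
Normalized counts of each library relative to the mean of the 3 DMSO libraries (y axis, log2 scale) for 21 listed genes (x axis), with DMSO libraries in blue, P3FI-90 libraries in orange and a black bar at the mean of each group. Kdm3a lies at the top and Kdm8 at the bottom, and for Kdm3b and Eed the 2 groups almost touch (Kdm4d is not drawn because 1 of its libraries held 0 counts).

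The promoters of the largest rises and falls are shown to let their base content be compared. RefSeq promoter windows (250 bases before to 50 bases after a transcription start, GRCm38.p6) were matched by symbol for 44 of the 58 genes, 57 windows in all. The match was uneven, with 26 of the 39 genes that rose and 15 of the 16 that fell. The 4 below are written 5′ to 3′ along the gene. Capitals mark matches on either strand to one of several words. They are the word GGGCGG of the GC box, to which Sp1 binds, and the word CCAAT of the CCAAT box, to which NF-Y binds. The word CCGGAAG is a site of ETS factors. The word TGACGT is the core of the cyclic AMP response element. The word TACGTG is the core of the hypoxia response element. The Kdm3a window lies at chr6:71632868-71633167 (minus strand), Kdm4d at chr9:14500433-14500732 (minus strand), Riox1 at chr12:83950358-83950657 (plus strand) and Kdm8 at chr7:125444370-125444669 (plus strand). Kdm3a has 3 listed starts, of which only the most upstream is shown, and Kdm4d, Riox1 and Kdm8 have 1 each.
Kdm3a: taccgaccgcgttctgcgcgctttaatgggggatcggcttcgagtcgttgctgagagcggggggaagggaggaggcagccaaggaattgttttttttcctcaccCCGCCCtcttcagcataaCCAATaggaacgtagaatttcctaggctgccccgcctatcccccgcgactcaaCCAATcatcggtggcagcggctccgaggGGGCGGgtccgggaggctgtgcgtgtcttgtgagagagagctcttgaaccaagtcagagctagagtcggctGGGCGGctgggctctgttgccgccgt
Kdm4d: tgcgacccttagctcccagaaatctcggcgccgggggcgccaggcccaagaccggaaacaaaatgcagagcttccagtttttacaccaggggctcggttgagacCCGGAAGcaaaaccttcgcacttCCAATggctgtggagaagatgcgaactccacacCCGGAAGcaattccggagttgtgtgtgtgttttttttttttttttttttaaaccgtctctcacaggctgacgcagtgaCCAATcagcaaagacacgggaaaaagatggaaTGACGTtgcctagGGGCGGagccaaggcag
Riox1: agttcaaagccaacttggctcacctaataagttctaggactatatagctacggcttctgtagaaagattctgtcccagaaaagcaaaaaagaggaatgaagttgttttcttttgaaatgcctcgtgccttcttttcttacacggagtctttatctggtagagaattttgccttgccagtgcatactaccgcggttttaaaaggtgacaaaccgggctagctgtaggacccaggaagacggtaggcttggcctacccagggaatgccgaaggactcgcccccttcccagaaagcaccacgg
Kdm8: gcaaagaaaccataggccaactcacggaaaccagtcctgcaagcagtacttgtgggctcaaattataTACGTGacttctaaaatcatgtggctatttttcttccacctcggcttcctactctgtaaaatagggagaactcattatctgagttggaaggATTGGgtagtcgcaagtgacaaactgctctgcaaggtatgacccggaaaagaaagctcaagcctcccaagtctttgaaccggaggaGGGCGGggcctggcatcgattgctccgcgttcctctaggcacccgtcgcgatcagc
Kdm3a is the most GC-rich of these windows (60.7%, 24 CpG), with 3 GC boxes and 2 CCAAT boxes, and the Riox1 window (47.3% GC, 10 CpG) held none of the words searched. Kdm4d (52.7% GC, 17 CpG) has 2 ETS words, 2 CCAAT boxes, 1 GC box and TGACGT. Kdm8 (50% GC, 13 CpG) has a GC box, a CCAAT box and TACGTG.

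The listed genes as a whole had CpG-dense promoters, with a median of 26 CpG in a window against 7 over all 32851 windows. Those 32851 windows were not limited to genes tested here, whereas every listed gene was tested. The shares below therefore do not compare the listed genes with other expressed genes. GGGCGG was found in 70.2% of their windows and in 35.7% of all, and CCAAT in 40.4% and 37.4%. GATGGCG, the core that YY1 binds, was in 17.5% of the windows of listed genes and in 3.49% of all. It was in 6 of the 15 matched genes that fell and 3 of the 26 matched genes that rose. CCGGAAG was in 10.5% of the windows of listed genes and 8.86% of all. It was in 6 of the 26 matched genes that rose and 0 of the 15 matched genes that fell. The TATA box word TATAAA was in 3.51% of the windows of listed genes and 13.6% of all. TGACGT was in 10.5% of the windows of listed genes and 7.51% of all, and TACGTG was in 3.51% and 3.23%. The E-box CACGTG was in 7.02% and 7.15%. The C/EBP-ATF word TGATGNAA was in 1.75% and 3.97%. The E2F word TTCCCGC was in 5.26% and 4.6%. Its variant TTGGCGC was in 5.26% and 2.45%. These words were chosen with the fold changes known, and a match is a description of the sequence only.

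Transcript length moved with the direction of change across the whole table, and the listed genes are long, with a median of 5944 bases in the longest coding transcript against 3107 for all genes tested. Of all genes with transcripts up to 3000 bases 31.1% were called higher and 47.2% lower, and of the 12 listed genes in this class 3 rose and 7 fell. Above 3000 and up to 6000 bases 43.8% of all genes were higher and 35.9% lower, against 12 and 6 of 19 listed genes. Above 6000 and up to 10000 bases the shares were 58.8% and 23.7%, against 17 and 3 of 20, and over 10000 bases they were 66.3% and 14.4%, with all 7 listed genes higher. The 7 longest are Kmt2a, Kmt2c, Kmt2d, Ash1l, Kdm5a, Nsd1 and Nsd3, which take in 5 of the 10 genes called with a rise of more than 1. With a smooth trend on transcript length and GC content taken out of the counts, the median log2 fold change of the listed genes was 0.058 in place of 0.26. Over all genes the median was then -0.0059, with 38.8% called higher and 39.6% lower, against 26 and 18 of the 58 listed genes. Calls in the same direction remained for 40 of the 55 genes. The other 15 were Setd1a, Setd7, Suv39h2, Setdb1, Kdm3b, Kdm7a, Ezh1, Suz12, Kdm2b, Kmt5c, Setd5 and Kmt2e, which were no longer called, and Kdm5b, Nsd1 and Nsd2, which were called in the other direction. Kdm4d (1.66), Kdm3a (1.17), Kdm6b (1.10) and Dot1l (1.04) still exceeded 1, and Kdm1a (-0.79), Kdm8 (-0.86) and Riox1 (-0.69) stayed lower. Other rises were more than 1.5 times smaller but still called. These were Kmt2c (0.73), Kmt2a (0.68), Kmt2d (0.42), Kdm5a (0.57), Prdm2 (0.22), Jmjd1c (0.53), Kdm6a (0.20), Ash1l (0.75), Nsd3 (0.64), Setd2 (0.38) and Kdm2a (0.39). The falls of Smyd3 (-0.67), Ehmt1 (-0.52), Phf8 (-0.39) and Kdm5c (-0.30) were more than 1.5 times larger. By mark, 7 of the H3K9 erasers were then higher and 1 lower, 5 of the H3K4 writers higher and 1 lower, and 4 of the H3K36 writers higher and 2 lower. The cause of the trend was not tested.

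**Figure D4:**
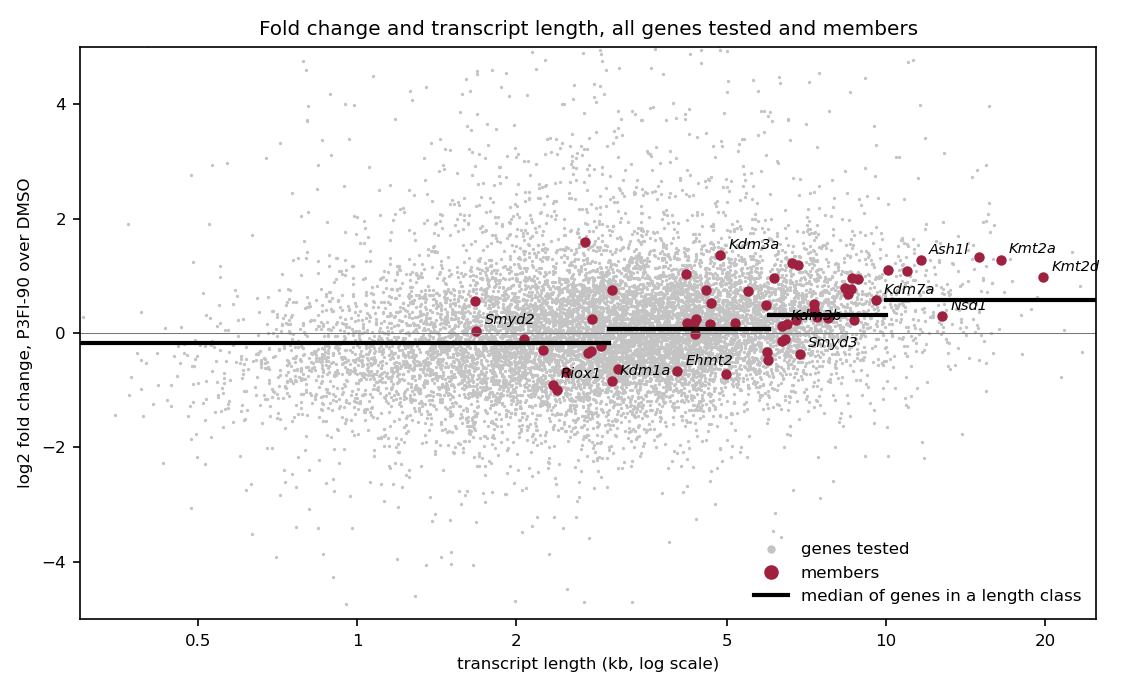
Log2 fold change (y axis, P3FI-90 over DMSO) against the length of the longest coding transcript (x axis, kilobases, log scale) for all genes tested (grey) and the 58 listed genes (dark red), with black lines at the median of all genes in each of 4 length classes. The class medians run from -0.18 to 0.57, all 7 listed genes over 10 kb are above 0, and 117 genes outside the axes are not drawn.

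Genes of the proteins that work with these enzymes are read against the same background, 39.9% of all genes tested higher and 39.4% lower. Of 8 subunits found in all or in some of the Kmt2 and Setd1 (COMPASS) complexes 3 rose, among them Rbbp5 by 0.49, and 5 fell, among them Dpy30 with -1.07 and Men1 with -0.74. Of 8 LSD1 complex genes 4 rose and 4 fell, with opposite changes in the CoREST paralogs: Rcor3 (1.5) and Rcor1 (0.82) rose and Rcor2 (-1.18) fell, as did the deacetylase Hdac1 (-0.75). Of 7 other PRC2 subunits tested, in which the core chaperones Rbbp4 and Rbbp7 were placed, 2 rose (Mtf2, 0.46, and Aebp2, 0.31) and 5 fell, led by Epop (-1.06), Rbbp7 and Rbbp4. PRC1 subunits were mixed, with 7 of 18 higher and 6 lower, from Rybp at 0.69 to Cbx7 at -0.70. Phc3 had the largest fitted value of that list (1.55 ± 0.49, SE), but its groups overlapped. Among 12 HP1, HUSH and H3K9 reader genes 6 rose (Cdyl by 0.95 and Wiz, a partner of G9a and GLP, by 0.87) and 4 fell, including the heterochromatin protein Cbx3 (-1.08) and Uhrf1 (-0.72). Of 7 H3K36 readers and partners 5 rose, including Brpf1 (0.96) and Supt6 (0.79), and Morf4l1 (-0.75) and Psip1 (-0.45) fell.

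Of 15 genes listed around the metabolism of the cosubstrates of writers and erasers, 12 fell and 2 rose, with a median log2 fold change of -0.89. The list also holds relatives and neighbouring enzymes, such as Ahcyl1, Ahcyl2, Sdha and Fh1. It is therefore not a count of enzymes that make or use up the cosubstrates. Idh1 and Idh2, which make alpha-ketoglutarate from isocitrate, fell most together with Mat2a, which makes S-adenosylmethionine. Idh1 went from 3482 ± 253 (SD) to 766 ± 33.7 normalized counts (log2 fold change -2.18), Mat2a from 9578 ± 284 to 2706 ± 164 (-1.82) and Idh2 from 8306 ± 410 to 2385 ± 70.9 (-1.80). Ahcyl2 rose by 0.88. Over all 7 lists of partners, 29 of 75 genes rose (38.7%, near the 39.9% of all genes tested) and 38 fell (50.7%, against 39.4%), with a median of -0.18, all on a scale that total counts alone would shift up by 0.21.

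**Figure D5:**
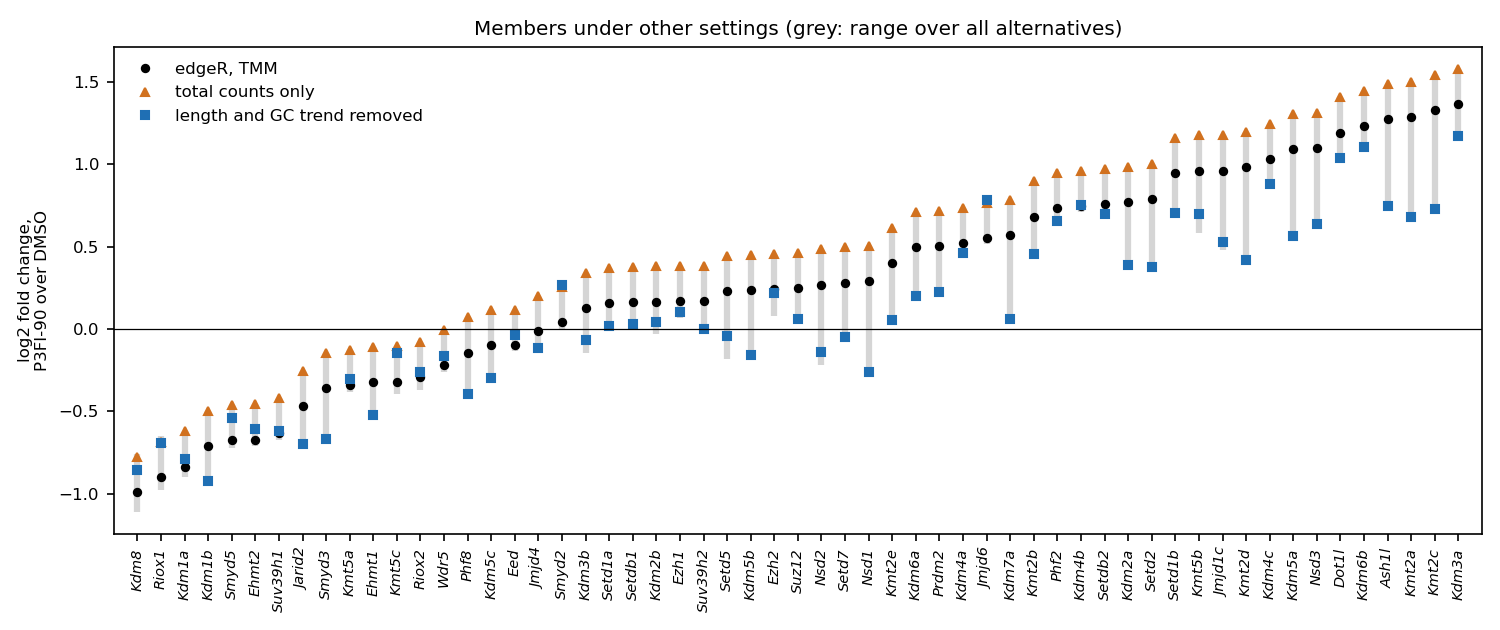
Log2 fold change (y axis, P3FI-90 over DMSO) of 57 listed genes (x axis, in the order of their main values) in the main fit (black), with total counts alone (orange) and with the length and GC trend removed (blue), with grey bars for the range over all alternatives. The largest changes, such as Kdm3a from 1.15 to 1.58, keep their direction, whereas small ones such as Kdm3b lie on both sides of 0 (Kdm4d is not drawn).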

How the data were processed

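RNA was extracted with TRIzol and sequenced from mRNA libraries on an Illumina NovaSeq 6000. The submitters' processing notes name CASAVA, HISAT2, StringTie and the build GRCm39; the annotation, the counting step and strand use are not given in the sources used here. The authors deposited whole-number read counts per gene, not normalized, in 1 table of 22401 entries. Of these, 296 assembled or unnamed transcripts (0.483% to 0.556% of counts) were left out, and every column mapped to a sample. No column held a comparison made by the authors. In each library 81 to 131 genes held 1 count and 278 to 389 held 2. Whether both reads of a pair were counted is not given in the sources used here; if so, a count is not 1 fragment, and halved counts were tried (38 listed genes higher, 16 lower).

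Genes were filtered with filterByExpr (minimum count 10), scaled by TMM and tested between the 3 P3FI-90 and 3 DMSO libraries with edgeR 4.0.16 (quasi-likelihood test, Benjamini-Hochberg adjustment over 12288 genes, threshold 0.05) in R 4.3.3, after the procedure was tested on simulated data. That simulation changed a small part of the genes, equally in both directions, so it does not check scaling or calls where most genes change. Normalized counts refer to a mean effective library size of 3.51e+07. Levels per kilobase and GC content used the longest coding transcript of GENCODE M21 (GRCm38). Alternatives were DESeq2 1.42.0, limma 3.58.1 (voom, and log2 of CPM plus 1), other scalings and filters, halved counts, the replicate number as a block, single libraries left out, and a spline trend (4 degrees of freedom) on length and GC content removed. A version with the length of all exons joined was added after seeing the data.

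Members and lists were chosen with earlier results of these data known. Full values are given for Kdm3b, its 2 paralogs, 4 PRC2 subunits and the 8 largest rises and 8 largest falls called without overlap; the others are given by fold change, and partner lists by counts with at most 3 rises and 3 falls. Promoter words and length classes were chosen after seeing the data. Same-numbered libraries of the 2 groups did not deviate together (correlations of deviations -0.015, 0.017 and 0.010), which does not show how they were made. No 2 libraries were alike within sampling noise (chi-square per gene 5.44 to 8.43 within groups and 351 to 394 between them). With 3 against 3 libraries an exact permutation test cannot go below 0.1, so none is given.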

Additional observations from a re-analysis of the deposited data

How the results depend on the processing

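Over 19 alternatives, 34 of the 58 genes kept their direction and their side of the threshold in each one that could be run. Of 1100 values 1042 were counted as the same, 37 lost the call and 4 gained one. A further 17 changed direction with a call in the main fit, the alternative or both. A change of sign without a call in either fit was counted as the same. Jmjd4 is such a case, with values from -0.086 to 0.051 when single libraries were left out. Kdm4d had too few counts to be tested under the filter of at least 10 counts in every library or with halved counts. Leaving out single libraries left 37 to 39 genes higher and 14 to 16 lower. Counts by role for H3K4, H3K9, H3K27 and H3K36 gave 2 to 3 H3K27 writers higher, 2 to 3 H3K4 erasers lower and 7 to 9 H3K9 erasers higher, and the others of these 4 marks did not move. With the replicate number as a block 38 genes were higher and 16 lower, and the call lost was that of Kdm4d (1.71, adjusted p = 0.0945). Same-numbered libraries did not deviate together, and the labels do not say whether they were paired.

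Total counts alone moved all genes up by 0.21 (50.3% higher and 29.6% lower): 10 listed genes were then lower, with 0 H3K4 writers (1 in the main fit, Wdr5) and 0 H3K9 erasers (1 in the main fit, Phf8) lower. Kdm5c (0.12), Phf8 (0.072), Eed (0.12) and Jmjd4 (0.20) changed direction. Upper quartile scaling gave 37 higher and 17 lower (38.3% and 41.3% of all genes), with 2 H3K27 writers lower where the main fit had 1.

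With the length and GC trend removed, 26 were higher and 18 lower, against 38.8% and 39.6% of all genes. H3K4 erasers higher went from 2 to 1, H3K9 writers higher from 4 to 2, H3K27 writers higher from 3 to 1, H3K36 writers lower from 0 to 2 and H3K36 erasers higher from 2 to 1. Direction changed for Setd7 (-0.049), Kdm5b (-0.16), Suv39h2 (-0.0020), Kdm3b (-0.065), Nsd1 (-0.26), Nsd2 (-0.14) and Setd5 (-0.040). With the length of all exons joined, 29 were higher and 19 lower, against 38.7% and 39.9% of all genes. In that version 1 H3K4 eraser, 2 H3K9 writers and 1 H3K36 eraser were higher, and 2 H3K9 erasers and 1 H3K36 writer were lower. Direction then changed for Kdm5b (-0.17), Kdm3b (-0.14), Nsd1 (-0.14), Nsd2 (-0.22), Kdm2b (-0.027) and Setd5 (-0.18). The cause was not tested. Low counts limit Kdm4d, and the data hold 1 time point, 1 dose and 1 cell line.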
